A study of Bos taurus and Sus scrofa with 6 samples.

Results

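Sertoli cells of the prepubertal cattle testis were taken from single-cell RNA-sequencing libraries of testicular cells from 3 Holstein cattle aged 4.5 months, each made with a droplet method that labels every RNA molecule with a unique molecular identifier (UMI). The testes were removed by castration, the parenchyma was dispersed into single cells, and no animal received a treatment. A cell was chosen when 6 genes (FSHR, AMH, CLDN11, INHA, AARD and AQP8) together gave at least 3 UMIs over at least 2 of them, and it was dropped when at least 2 genes of a germ cell set (DDX4, DAZL, MAEL, TDRD1), a Leydig cell set (CYP17A1, CYP11A1, STAR) or a stromal set (DCN, TCF21, PDGFRA), or at least 3 of the cell division genes UBE2C, TOP2A, CENPF, NUSAP1 and PCLAF, had a UMI. This left 3630 Sertoli cells of 18504 called cattle cells, and of 27961 called cells when the libraries of 3 mixed-breed pigs aged 3 months in the same series are included. The sort was made on RNA alone, so the 21 genes used to choose or drop cells are described below without a test. The titles of 2 of the cattle libraries share a testis number but carry different animal tags, and each library was counted as 1 animal.

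Sertoli cells are the somatic cells of the seminiferous tubule that enclose and feed the germ cells. Before puberty they still mature: they respond to follicle-stimulating hormone (FSH), secrete anti-Müllerian hormone and inhibin, and later join into the blood-testis barrier, a belt of tight junctions that closes off the inner part of the tubule. They also supply germ cells with lactate, metal-binding proteins and retinoids, lay down basement membrane together with the peritubular myoid cells, signal to Leydig and myoid cells outside the tubule, and engulf dying germ cells.

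The Sertoli cells made up 11.9% of the called cells in cattle 1 (422 of 3545, exact binomial 95% confidence interval 10.9% to 13.0%), 24.2% in cattle 2 (2115 of 8751, 23.3% to 25.1%) and 17.6% in cattle 3 (1093 of 6208, 16.7% to 18.6%), or 17.9% ± 6.14 (SD, n = 3). The intervals do not overlap, and they cover counting error only. The shares also depend on the rule: with no cell dropped they were 13.5%, 28.5% and 29.6%, which put cattle 3 highest, and with at least 5 UMIs over 3 genes they were 6.77%, 18.6% and 16.0%. The smallest UMI total of a called cell also differed, at 460 UMIs in cattle 1, 972 in cattle 2 and 2644 in cattle 3, and the libraries held 5805223, 27409347 and 53325608 UMIs. The median Sertoli cell had 1352.5, 2803 and 5185 UMIs and 655, 996 and 1539 detected genes, against 712.5, 1517 and 3952.5 UMIs in the other cells that served as the reference. Of 4812 cells that passed the 6-gene criterion, 1182 were dropped, 878 of them for stromal genes, 367 for Leydig genes, 91 for germ cell genes and 65 for cell division genes, with some dropped for more than 1 set. Dividing cells were 1.25%, 0.642% and 2.34% of those that passed. Exactly 3 UMIs of the 6 genes were seen in 160 Sertoli cells, and 151 cells with no ground for dropping lay just outside the rule, with 2 UMIs over 2 genes. The 3 libraries shared few called barcodes (45, 23 and 71 between pairs), and 8 of these were Sertoli cells in both libraries of a pair.

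Levels are given as counts per 1000000 UMIs of the summed cells (CPM), always in the order cattle 1, 2 and 3, and levels of different genes are not compared as expression because a 3′ count depends on the transcript end. INHA, the inhibin alpha subunit, stood at 4887, 2965 and 1997 CPM in the Sertoli cells and at 261, 85.7 and 52.7 CPM in the other cells. FSHR, the receptor for FSH, stood at 86, 110.3 and 70.3 CPM, and AMH, anti-Müllerian hormone, at 243, 180.1 and 134 CPM. CLDN11, the claudin of the blood-testis barrier, stood at 389.7, 309 and 535 CPM. The other genes of the rule, AARD and the water channel gene AQP8, stood at 599, 562 and 461 CPM and 997, 661 and 618 CPM. These values chose the cells and so had to differ. INHA carried the rule in nearly every cell: 33 of 3630 Sertoli cells had no INHA UMI, 636 were chosen on INHA and 1 other gene, and 1743 had no UMI of either FSHR or AMH. An AMH UMI was found in 29.15%, 36.31% and 44.37% of the Sertoli cells and an FSHR UMI in 11.37%, 25.15% and 33.85%. In droplets with at most 50 UMIs, which hold free RNA and no cell, INHA lay at 2064, 1360.3 and 834 CPM and AQP8 at 184, 218 and 219 CPM, below the Sertoli cells of the same animal but above the other cells.

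**Figure D1:**
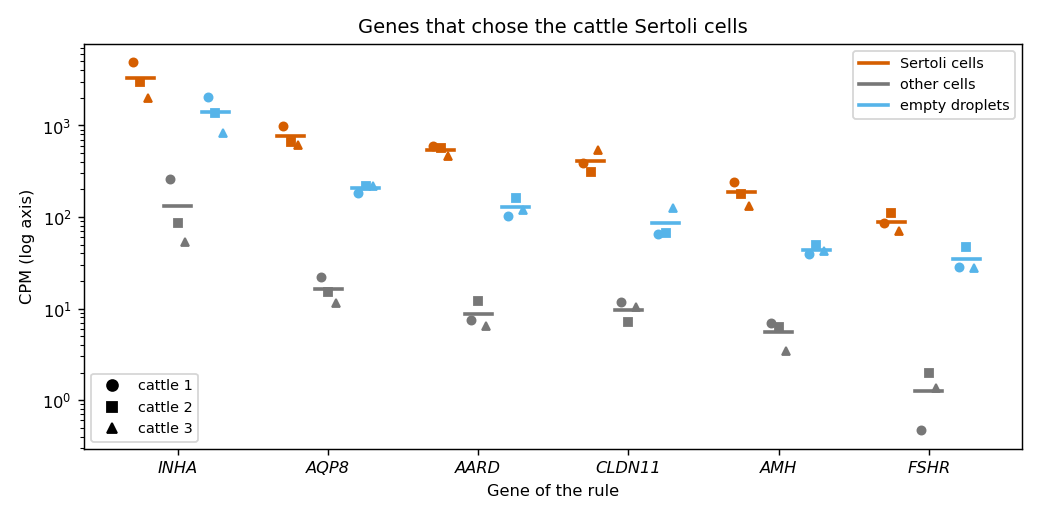
Levels of the 6 genes of the rule (CPM, log axis) in the Sertoli cells, the other cells and the empty droplets, with 1 point per animal and a bar at the mean of 3 animals. Within each animal the Sertoli cells lie highest for each gene and the empty droplets lie between them and the other cells, as for INHA in cattle 1; across animals the INHA ranges of Sertoli cells and empty droplets overlap.

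The label was checked against markers that the rule did not use. Of 21 Sertoli markers, 4 were used by the rule and 17 are in the cattle gene table; SOX9, CST9L, GSTA1 and CTSL were not analysed here. Of the 11 others that could be tested against the other cells, 8 were higher (5 without cattle 2 and 4 without cattle 3) and none was lower. Over all 13578 genes tested, 13.6% were higher and 17.0% lower. Without cattle 2, 552 of 12803 genes were higher, and without cattle 3, 518 of 12360. CLU, clusterin, a secreted chaperone, stood at 7694, 4081 and 4365 CPM against 1042, 1161 and 999 CPM (log2 fold change 2.62 ± 0.26 (SE), edgeR adjusted p = 0.00024). SERPINA5, a secreted protease inhibitor, stood at 324, 340.3 and 332 CPM against 40.2, 33.5 and 26.1 CPM (3.68 ± 0.28 (SE), edgeR adjusted p = 0.000113). PTGDS, prostaglandin D synthase, stood at 21209, 13254 and 11352 CPM against 4795, 4752 and 4459.9 CPM (2.01 ± 0.27 (SE), edgeR adjusted p = 0.000946). For all 3 genes every Sertoli value lay above every value of the other cells. GATA4 and WT1, transcription factors of the gonadal soma, were also higher, though WT1 was at 8.43, 3.32 and 4.6 CPM only (2.15 ± 0.50 (SE), edgeR adjusted p = 0.0119). At an unadjusted p under 0.05 none was lower either, nor was any in DESeq2. SOX8 and INHBB had 0 of 592769, 5729633 and 6958222 Sertoli UMIs, which allows up to 5.06, 0.524 and 0.431 CPM (3 counts per library). TF, transferrin, a classical Sertoli product, stood at 97.8, 31.2 and 59.9 CPM against 156, 29.4 and 15.5 CPM and did not pass the test (edgeR adjusted p = 0.896), while in Leydig cells it was at 516, 525 and 536 CPM. With the animal as a replicate block TF was higher (log2 fold change 0.89, edgeR adjusted p = 2.29e-06), as it was without cattle 1 (1.46, edgeR adjusted p = 0.0156). Without cattle 2 and without cattle 3, edgeR's adjusted p was 0.135 and 0.201 for WT1 and 0.0844 and 0.0686 for GATA4.

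Genes of other cell types were low but not absent in the Sertoli cells. The Leydig markers summed to 7872, 982 and 1337 CPM, which was 6.89%, 3.66% and 7.36% of their sum in the empty droplets of the same library, and INSL3, the Leydig cell hormone and the one of the 7 in the table with the most UMIs, made up 7559, 875 and 1271 CPM; all 7 had a UMI in each animal. The 12 stromal and myoid markers summed to 889, 363 and 459 CPM against 7585, 10644 and 11420.5 CPM in the other cells, with the most UMIs from ACTA2 in cattle 1 and 3 and from DCN in cattle 2. The 11 germ cell markers summed to 94.5, 69.8 and 55.3 CPM, with the most UMIs from UCHL1 and with DDX4, TDRD1, GFRA1, RET, SYCP3 and TEX101 at 0 in cattle 1, RET in cattle 2 and UTF1 in cattle 3. The rule had removed cells on genes of these 3 types, so their low levels are no result. It had not removed cells on blood or vessel genes. The 9 macrophage markers summed to 386, 269 and 495 CPM, with the most UMIs from C1QA, the 8 lymphocyte markers to 214, 110 and 266 CPM, with the most from CCL5, and the 6 endothelial markers to 27.0, 63.4 and 23.6 CPM, with the most from CLDN5. In the other cells these lists summed to 1028, 1429.8 and 1659.8 CPM, to 1466, 1671 and 1572 CPM and to 24.3, 45.6 and 32.9 CPM, so the endothelial sum was no lower in the Sertoli cells of cattle 1 and 2. MS4A1 was at 0 in every animal, and CD163, TIE1 and ESAM were at 0 in cattle 1. In 200 Sertoli cells (20, 84 and 96, or 5.51% of all) the macrophage, lymphocyte or endothelial list held at least 3 UMIs over at least 2 genes and at least 0.1% of the cell's UMIs, 121 through macrophage, 79 through lymphocyte and 4 through endothelial markers, some through more than 1 list. Leaving these cells out gave 1873 genes higher and 2449 lower than the other cells where all Sertoli cells gave 1851 and 2302; the part of these cells in the other results was not tested. Erythroid markers reached 2.27 CPM at most.

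Depth within an animal was examined as a description, with no test. When the Sertoli cells of an animal were split at their median UMI total, the 211 shallow cells of cattle 1 had CLU at 8128 CPM and the 211 deep cells at 7492 CPM. In cattle 2 the values were 4099 and 4072 CPM, and in cattle 3 they were 4060 and 4489 CPM. FOS, an immediate early gene, was higher in the deep cells of each animal, at 1340 against 1669, 639 against 780 and 389 against 846 CPM. The share of UMIs from mitochondrial genes was 3.42%, 7.19% and 9.85% in the Sertoli cells, 2.62%, 7.59% and 8.47% in Leydig cells and 1.34%, 2.73% and 2.87% in the other cells, and in cattle 3 it was higher in the deep than in the shallow Sertoli cells (109092 against 72658 CPM), as in cattle 1 (35141 against 32342 CPM), but lower in cattle 2 (69605 against 76261 CPM). Cells at the edge of the rule held less CLU and DEFB119 than all Sertoli cells of the same animal. CLU stood at 3849, 2614 and 744 CPM in the cells with exactly 3 UMIs of the 6 genes and at 2546, 1980 and 449 CPM in those just outside with 2 UMIs. DEFB119, a beta-defensin gene, stood at 360, 800 and 252 CPM inside and at 252, 471 and 44.3 CPM outside. The level of both genes was lower outside the rule in each animal.

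To find what else marked the Sertoli cells, UMIs were summed per animal and compared with those of the 11729 other cells, which had at most 1 UMI of the 6 genes, in edgeR's quasi-likelihood test with 3 sums a side. Of 13578 genes tested, 1851 (13.6%) were higher in Sertoli cells and 2302 (17.0%) were lower at an adjusted p under 0.05. In the fit that added the animal as a replicate block, 3475 were higher and 3951 lower. Without cattle 2 the counts were 552 and 587, without cattle 3 they were 518 and 762, and when no cell was dropped for genes of another type they were 1122 and 1113. Scaling by library size alone shifted the genes' log2 fold changes by a median of -0.397 and moved the split to 1178 higher and 3339 lower. The median log2 fold change over all genes was -0.11 in the fit as reported, and the lists below are read beside it and the shares of 13.6% and 17.0%. These shares hold for that fit only. List counts from another fit are to be read beside the counts of the same fit given in this paragraph. Those are of 13578 genes tested with the block and with library size alone, 12803 without cattle 2 and 12360 without cattle 3. When no cell was dropped, 14061 genes were tested. DESeq2 called 1544 of 12763 genes higher and 2176 lower. Without cattle 1, 2653 of 13408 genes were higher and 3023 lower.

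The 15 named genes with the largest rise, each higher in all 3 animals, included genes of adhesion, secretion and transport. VSIG1, an immunoglobulin-domain adhesion protein, stood at 82.7, 131 and 114 CPM in Sertoli cells and at 3.27, 4.2 and 2.64 CPM in the other cells (log2 fold change 5.42 ± 0.38 (SE), edgeR adjusted p = 7.86e-05). PRND, which encodes the prion-like protein doppel, stood at 52.3, 79.8 and 65.4 CPM against 0.934, 2.2 and 2.46 CPM (5.37 ± 0.40 (SE), edgeR adjusted p = 9.44e-05). PCSK1N, the precursor of an inhibitor of prohormone convertase, stood at 351, 227 and 339 CPM against 7.47, 10.9 and 10.9 CPM (5.26 ± 0.29 (SE), edgeR adjusted p = 5.87e-05). In each of these genes the lowest Sertoli value lay far above the highest value of the other cells. Genes of secreted defence and protease-inhibitor proteins formed part of the set. The beta-defensin gene DEFB123 stood at 119.8, 121 and 110.4 CPM against 3.27, 4.99 and 3.32 CPM (5.25 ± 0.29 (SE), edgeR adjusted p = 5.87e-05), and DEFB119 rose by 4.89 on the log2 scale. SPINLW1, an older name of the eppin gene for a serine protease inhibitor of the male tract, stood at 1649.9, 784 and 1995 CPM against 53.3, 35.4 and 87.1 CPM (4.97 ± 0.49 (SE), edgeR adjusted p = 0.00023). PI3, which encodes the elastase inhibitor elafin, stood at 40.5, 201 and 68.6 CPM and was highest in cattle 2 (4.86 ± 0.72 (SE), edgeR adjusted p = 0.00147).

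Others of the 15 serve transport, transmitters or metabolism. SLC52A3, a riboflavin transporter, stood at 282, 180.5 and 222 CPM against 8.88, 6.09 and 7.87 CPM (5.24 ± 0.28 (SE), edgeR adjusted p = 5.87e-05). ACHE, acetylcholinesterase, stood at 386, 230.0 and 241 CPM against 11.7, 9.99 and 8.48 CPM (5.15 ± 0.27 (SE), edgeR adjusted p = 5.87e-05). ADORA1, the adenosine A1 receptor, stood at 79.3, 55 and 54.9 CPM against 3.74, 2.4 and 2.15 CPM (4.93 ± 0.30 (SE), edgeR adjusted p = 5.87e-05). The Sertoli values of these genes did not overlap with those of the other cells. SPOCK2, a matrix proteoglycan, rose by 5.24, HOGA1, an enzyme of hydroxyproline breakdown, by 4.99, MAP7, a microtubule-binding protein, by 4.91 and MGC140080 by 4.83 on the log2 scale. C28H10ORF10, now named DEPP1, had the widest ratio of highest to lowest animal among the 15, at 707, 256 and 105 CPM, and stood in the other cells at 23.4, 14.7 and 5.65 CPM (4.89 ± 0.72 (SE), edgeR adjusted p = 0.00149). Without a symbol in the gene table, and singled out after their values were seen, ENSBTAG00000027420 stood at 27579, 22397 and 17476 CPM against 656, 929.5 and 799 CPM (5.14 ± 0.31 (SE), edgeR adjusted p = 5.87e-05) and ENSBTAG00000032687 at 11968, 11635 and 6117 CPM against 369, 425 and 262 CPM (5.14 ± 0.38 (SE), edgeR adjusted p = 9.7e-05). The first of these had a UMI in 97.2, 100 and 99.6% of Sertoli cells. Thinned to 460 UMIs per cell it remained in 96.2, 99.3 and 97.2% of Sertoli cells and 20.5, 32.7 and 32.7% of stromal cells, and in empty droplets it lay at 9800.0, 12275 and 7248 CPM. DEFB119, thinned in the same way, was seen in 25.1, 32.2 and 26.8% of Sertoli cells and 0.473, 2.29 and 1.92% of stromal cells.

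**Figure D2:**
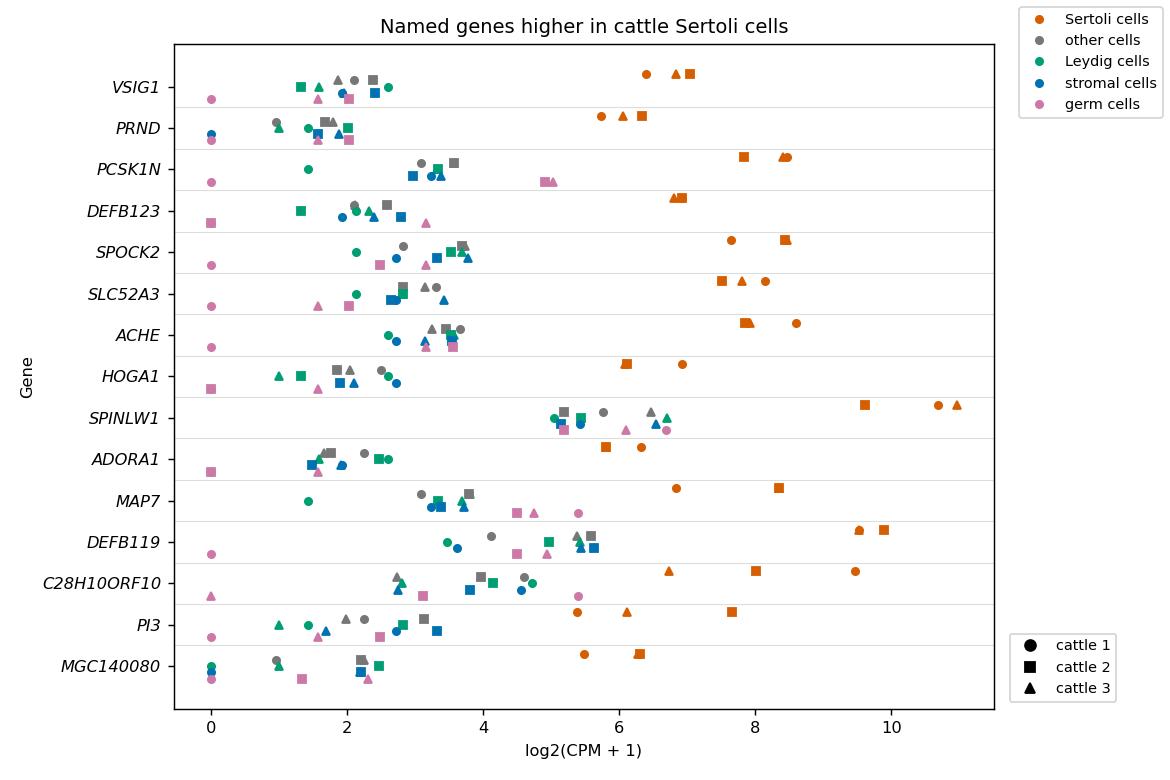
Levels of the 15 named genes with the largest rise in Sertoli cells (log2 of CPM plus 1) in the Sertoli, other, Leydig, stromal and germ cells, with 1 point per animal. The 3 Sertoli points of each gene lie to the right of all points of the other cells, as for ACHE with 230 to 386 CPM against 8.48 to 11.7 CPM.

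The 10 named genes with the largest fall include genes of contractile and matrix-forming cells, and the rule had dropped cells with stromal genes. NEXN, an actin-binding protein of muscle, stood at 3.37, 1.57 and 2.59 CPM against 57.5, 74.1 and 112 CPM (-4.77 ± 0.39 (SE), edgeR adjusted p = 0.00015). EDNRA, an endothelin receptor, stood at 16.9, 13.3 and 14.1 CPM against 235, 484 and 676 CPM (-4.64 ± 0.41 (SE), edgeR adjusted p = 0.000168). TAGLN, transgelin of smooth muscle, stood at 69.2, 21.8 and 39.4 CPM against 864, 784 and 1078 CPM (-4.17 ± 0.37 (SE), edgeR adjusted p = 0.000168). In stromal cells these genes were at 89.7, 107 and 160.1, 462, 721 and 965 and 1550.0, 1179.9 and 1505 CPM. HIGD1B, P4HA3, OTOR, OGN, CA3, DPT and SH3BGR fell by 4.12 to 4.40 on the log2 scale, CA3 with no call when no cell was dropped (edgeR adjusted p = 0.0945). Of the marker lists, 9 of 9 tested stromal and myoid, 7 of 7 germ cell, 9 of 9 macrophage, 7 of 7 lymphocyte and 4 of 6 endothelial genes were lower in the Sertoli cells, as was 1 of 4 Leydig genes, LHCGR. HSD17B3, a steroid enzyme gene that is also on the Sertoli list, was the 1 higher Leydig gene, and INSL3, NR5A1, CLDN5, TIE1 and the erythroid gene AHSP were not called. No gene of the stromal, germ cell, macrophage, lymphocyte or erythroid lists was higher at an unadjusted p under 0.05 or in DESeq2, while 1 endothelial gene was higher at an unadjusted p under 0.05. With the animal as a replicate block, 1 endothelial gene was higher and 2 Leydig genes were lower, as 2 were without cattle 1 and none without cattle 2, and no Leydig gene was higher without cattle 3. When no cell was dropped for genes of another type, 0 germ cell, 8 stromal, 8 macrophage, 7 lymphocyte and 1 endothelial gene were lower. Without cattle 2, 0 macrophage, 0 germ cell and 0 endothelial genes were lower, and without cattle 3 the counts were 5, 1 and 0. Tested against Leydig, stromal and germ cells, as described below, no macrophage or lymphocyte gene was lower in the Sertoli cells. None was higher against Leydig or stromal cells, while 5 of 9 macrophage and 2 of 7 lymphocyte genes were higher than in germ cells.

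Hormones and their receptors were a mixed list: of 13 genes tested, 1 was higher and 6 were lower, with a median log2 fold change of -0.52 (4 and 6 in the fit with the replicate block). The hormone list had 0 and 1 genes higher and 1 and 2 lower without cattle 2 and without cattle 3. The higher gene was AMHR2, the receptor for anti-Müllerian hormone, at 3.37, 4.36 and 4.31 CPM against 0.934, 0.0999 and 0.123 CPM (4.69 ± 0.74 (SE), edgeR adjusted p = 0.00205). INHBA, the inhibin and activin beta A subunit, stood at 86, 95.6 and 138 CPM against 36.4, 42.5 and 101 CPM and missed the threshold (edgeR adjusted p = 0.0614), but passed it with the animal as a replicate block (adjusted p = 4.5e-12). IGF2, a growth factor, fell, from 996, 1123 and 2219 CPM to 105, 44.2 and 81.5 CPM (-3.95 ± 0.42 (SE), edgeR adjusted p = 0.00031). ESR1 and ESR2, the estrogen receptor genes, gave no UMI in the Sertoli cells. Each had fewer than 10 counts over the Sertoli and other cells together, too few to be tested. Downstream of the FSH receptor, which acts through cyclic AMP, 4 of 14 genes tested were higher and 1 lower, with a median of 0.06 (5 and 4 with the block). Without cattle 1 the FSH signalling list had 4 genes higher and 3 lower, and without cattle 2, as without cattle 3, it had 1 and 0. SGK1, a kinase that FSH is known to induce, stood at 64.1, 80.1 and 92 CPM against 11.7, 17.3 and 25 CPM (2.49 ± 0.35 (SE), edgeR adjusted p = 0.00115). PRKACB, a catalytic subunit of protein kinase A, stood at 89.4, 150.3 and 127 CPM against 33.2, 57.3 and 62.6 CPM (1.65 ± 0.35 (SE), edgeR adjusted p = 0.0078). The values of both genes did not overlap between Sertoli and other cells, and the regulatory subunit gene PRKAR2A and the cyclase gene ADCY9 were the other members that rose. Without cattle 2 and without cattle 3, edgeR's adjusted p was 0.0656 and 0.0812 for AMHR2 and 0.0814 and 0.0601 for PRKACB.

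Among 18 paracrine factors tested, 4 were higher and 9 were lower, with a median of -1.48. The paracrine list had 1 and 1 genes higher and 4 and 3 lower without cattle 2 and without cattle 3. PDGFA, a platelet-derived growth factor that acts on interstitial and myoid cells, stood at 47.2, 37.3 and 28.3 CPM against 7.01, 6.39 and 4.06 CPM (3.05 ± 0.31 (SE), edgeR adjusted p = 0.00026). DHH, desert hedgehog, which Sertoli cells send to Leydig and myoid cells, was called higher on 1, 7 and 7 UMIs, and KITLG, the ligand of the germ cell receptor KIT, on 0, 7 and 10 UMIs. WNT6 was the other gene that rose. GDNF, the niche factor of spermatogonial stem cells, gave 0, 2 and 1 UMIs and could not be tested. BMP4, JAG1, CXCL12 and NRG1, growth or guidance factors, fell: BMP4 went from 26.6, 29.8 and 30.4 CPM to 3.37, 0.698 and 0.719 CPM (-4.57 ± 0.43 (SE), edgeR adjusted p = 0.000201) and JAG1, a Notch ligand, from 44.8, 15.7 and 16 CPM to 3.37, 1.22 and 1.58 CPM (-3.56 ± 0.59 (SE), edgeR adjusted p = 0.00254). Of 18 gonadal transcription factors tested, 4 were higher (WT1, GATA4, SOX4 and BHLHE40) and 6 were lower, with a median of 0.17 (2 and 6 when scaled by library size alone and in DESeq2, and 2 and 4 when no cell was dropped). The transcription factor list had 0 and 0 genes higher and 4 and 4 lower without cattle 2 and without cattle 3. GATA4 stood at 55.7, 84.3 and 108 CPM against 31.8, 33.2 and 40.5 CPM (1.64 ± 0.33 (SE), edgeR adjusted p = 0.00658). Without cattle 2 and without cattle 3, edgeR's adjusted p was 0.0844 and 0.0686 for GATA4 and 0.135 and 0.201 for WT1, which was at 0.0688 against all called barcodes outside the rule. NR2F2, LHX9 and EMX2, factors of interstitial cells and the early gonad, fell, NR2F2 from 176, 302 and 355 CPM to 21.9, 11.2 and 14.5 CPM (-3.87 ± 0.33 (SE), edgeR adjusted p = 0.000165).

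Junction genes were examined for the blood-testis barrier: of 29 tested, 9 were higher and 4 were lower, with a median of 0.75 (16 and 7 with the block). The junction list had 6 and 6 genes higher and 0 and 0 lower without cattle 2 and without cattle 3. CDH2, N-cadherin, which joins Sertoli cells to each other and to germ cells, stood at 70.9, 128 and 96.4 CPM against 9.34, 10.1 and 9.34 CPM (3.76 ± 0.35 (SE), edgeR adjusted p = 0.000188). CGN, cingulin, which ties tight junctions to the cytoskeleton, stood at 13.5, 23.6 and 24.4 CPM against 4.2, 2.9 and 1.72 CPM (3.40 ± 0.45 (SE), edgeR adjusted p = 0.000923). The Sertoli values of both genes lay above every value of the other cells. JAM2, CADM1, CTNND1, DSG2, PKP2 and PARD6B, genes of junction adhesion, catenin, desmosome and polarity proteins, rose as well. CADM1 stood at 69.2, 55.7 and 39.7 CPM against 10.7, 6.89 and 5.53 CPM (3.21 ± 0.33 (SE), edgeR adjusted p = 0.000272). CLDN1, CTNNB1, DSC2 and DSP fell; CTNNB1, beta-catenin, was at 69.2, 63.4 and 60.4 CPM against 122, 141 and 165 CPM (-0.81 ± 0.22 (SE), edgeR adjusted p = 0.0246; without cattle 2 and without cattle 3, edgeR's adjusted p was 0.165 and 0.163). OCLN, occludin, the other membrane protein typical of the barrier, gave 1, 0 and 1 UMIs.

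Secreted and metal-binding proteins had 9 of 22 tested genes higher and 4 lower, with a median of 0.42. The secretion list had 6 and 6 genes higher and 2 and 4 lower without cattle 2 and without cattle 3. Besides CLU, SERPINA5, PTGDS and the 2 defensins, the list holds PLAT, tissue plasminogen activator, at 106, 60.9 and 94 CPM against 14.9, 36.1 and 26.1 CPM (2.06 ± 0.33 (SE), edgeR adjusted p = 0.00209), FTL, the ferritin light chain, at 2488, 3104 and 2702 CPM against 1466, 1613 and 1453 CPM (1.23 ± 0.26 (SE), edgeR adjusted p = 0.00817), and SPARC and PROS1. TIMP1, a protease inhibitor, fell from 228, 361 and 283 CPM to 28.7, 20.6 and 21.6 CPM (-3.30 ± 0.25 (SE), edgeR adjusted p = 0.000113), as did A2M, SERPINE2 and LCN2. Of 21 genes of lactate supply and glucose uptake, 5 were higher and 3 lower, with a median of 0.05 (9 and 5 with the block, and 2 and 4 when scaled by library size alone). Of all genes 13.6% were higher and 17.0% lower, so the lower count is near the background. The lactate list had 0 and 0 genes higher and 1 and 1 lower without cattle 2 and without cattle 3. BSG, basigin, the partner of lactate transporters, stood at 919, 769.5 and 586 CPM against 586, 469 and 386 CPM (0.98 ± 0.26 (SE), edgeR adjusted p = 0.0197), and the glycolytic genes ALDOA and GAPDH, the lactate transporter gene SLC16A7 and HK2 were the other members that rose. LDHA, a lactate dehydrogenase subunit, stood at 45.5, 36.3 and 58.2 CPM against 75.7, 85.8 and 80.5 CPM and did not pass the test (edgeR adjusted p = 0.237). SLC16A3, a lactate exporter gene, fell, with 1, 3 and 2 UMIs in the Sertoli cells (-2.64 ± 0.58 (SE), edgeR adjusted p = 0.00955), as did PFKP and SLC2A3. With the animal as a replicate block LDHA was lower (edgeR adjusted p = 0.0278). When single animals were left out, the edgeR adjusted p without cattle 2 and without cattle 3 was 0.156 and 0.104 for FTL, 0.24 and 0.124 for BSG and 0.136 and 0.176 for SLC16A3. When no cell was dropped it was 0.0514 for FTL and 0.117 for BSG, and with library size alone 0.078 for BSG and 0.0381 for LDHA.

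In the retinoid list, 3 of 16 genes tested were higher and 3 were lower, with a median of -0.35 (4 and 5 with the block, 3 and 5 when scaled by library size alone). The retinoid list had 1 and 1 genes higher and 2 and 2 lower without cattle 2 and without cattle 3. CRABP2, which carries retinoic acid to the nucleus, stood at 109.7, 68.1 and 65.1 CPM against 4.67, 6.59 and 5.28 CPM (4.14 ± 0.26 (SE), edgeR adjusted p = 6.44e-05). STRA6, a retinol uptake receptor, and RARA, a retinoic acid receptor, rose too, RARA from 30.4, 28.3 and 37.1 CPM to 65.8, 57.9 and 56.3 CPM (1.25 ± 0.23 (SE), edgeR adjusted p = 0.0043). RARA lost its call without cattle 2 (edgeR adjusted p = 0.11) and without cattle 3 (0.0508). RBP4, the retinol carrier of plasma, fell from 540.1, 637 and 614 CPM to 48.9, 32.8 and 25.3 CPM (-3.79 ± 0.26 (SE), edgeR adjusted p = 7.2e-05), and so did CRABP1 and RARG. Among all genes tested 13.6% were higher and 17.0% lower, so these counts are near the background. Of 15 genes of germ cell engulfment, 5 were higher and 1 was lower, with a median of 0.30 (6 and 3 with the block). The engulfment list had 3 and 3 genes higher and 0 and 0 lower without cattle 2 and without cattle 3. TYRO3, a receptor tyrosine kinase of the TAM family, which binds dying cells through bridging proteins, stood at 172, 159.7 and 206 CPM against 9.34, 19.4 and 13.9 CPM (3.99 ± 0.32 (SE), edgeR adjusted p = 0.000137). MERTK, its relative, stood at 23.6, 13.4 and 9.77 CPM against 2.34, 4.1 and 3.07 CPM (2.47 ± 0.38 (SE), edgeR adjusted p = 0.00175). PROS1, a bridging ligand of both, ELMO1, an engulfment adaptor, and the integrin gene ITGB5 were the other 3 that rose, and DOCK1, the partner of ELMO1, fell.

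Of 18 cytoskeleton genes tested, 6 were higher and 4 lower, with a median of -0.06. The cytoskeleton list had 2 and 3 genes higher and 3 and 3 lower without cattle 2 and without cattle 3. ESPN, espin, an actin-bundling protein of Sertoli cell junctions, stood at 30.4, 21.8 and 31.8 CPM against 0.934, 1.3 and 1.11 CPM (4.93 ± 0.34 (SE), edgeR adjusted p = 7.2e-05). TUBB3, a beta-tubulin, stood at 142, 67.5 and 106 CPM against 33.2, 12.9 and 16.3 CPM (2.66 ± 0.40 (SE), edgeR adjusted p = 0.0017). TUBA1A, TUBB2A, EZR and ACTN4 also rose. The keratin genes KRT8 and KRT18, markers of immature Sertoli cells in several species, fell against the other cells: KRT18 was at 21.9, 4.71 and 11.9 CPM in Sertoli cells, at 119, 99.6 and 184 CPM in the other cells and at 163, 155 and 262 CPM in stromal cells (-3.28 ± 0.46 (SE), edgeR adjusted p = 0.0012). Neither keratin gene was called against Leydig cells (edgeR adjusted p = 0.119 for KRT8 and 0.874 for KRT18) or germ cells (0.582 and 0.417), in tests described below. MSN and TUBB6 also fell against the other cells. VIM, vimentin, stood at 1229.8, 813 and 1603 CPM against 1751, 2013 and 2941 CPM with no call (edgeR adjusted p = 0.242), but was lower with the animal as a replicate block (edgeR adjusted p = 0.03). Basement membrane genes had 1 of 19 tested higher and 8 lower, with a median of -1.20 (3 and 12 with the block, 0 and 12 when scaled by library size alone). Without cattle 1 the basement membrane list had 2 genes higher and 11 lower, and it had 0 and 0 higher and 3 and 4 lower without cattle 2 and without cattle 3. The higher gene was LAMA1, a laminin alpha chain, at 103, 123 and 134 CPM against 63.5, 96.1 and 69.8 CPM (1.03 ± 0.27 (SE), edgeR adjusted p = 0.0198), a call lost without cattle 2 (edgeR adjusted p = 0.116), without cattle 3 (0.227), with scaling by library size alone (0.0677) and when no cell was dropped (0.0595). LAMB1, a laminin beta chain, fell from 84.1, 121 and 136 CPM to 28.7, 16.2 and 19.3 CPM (-2.14 ± 0.27 (SE), edgeR adjusted p = 0.000682), with 4 type IV collagen genes among the others. The result for this list depended on the reference. Against Leydig cells 0 of the 19 genes were higher and 4 lower (median log2 fold change -0.17). Against stromal cells the counts were 1 and 12 (median -1.75), and against germ cells 9 and 2 (median 2.15).

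Of 18 genes of cholesterol synthesis and uptake, none was higher in Sertoli cells and 9 were lower, with a median of -1.20. None was higher at an unadjusted p under 0.05 or in DESeq2, and with the animal as a replicate block 14 were lower. Without cattle 2 only 1 was lower, without cattle 3 5 were, and 3 were when no cell was dropped for genes of another type. SQLE, an enzyme of the pathway, was at 3.37, 11.7 and 10.1 CPM in Sertoli cells, 43.4, 84.8 and 39.5 CPM in the other cells and 58.8, 589.6 and 106 CPM in Leydig cells (-2.12 ± 0.43 (SE), edgeR adjusted p = 0.00677 against the other cells, and 0.0555 without cattle 2). Leydig cells, which make steroids from cholesterol, were part of the other cells, and SQLE in them was highest in cattle 2. In the tests against single cell types, described below, 17 cholesterol genes were tested. All 17 were lower than in Leydig cells and 4 were lower than in stromal cells. Against germ cells 3 were higher and none was lower. Of 15 tested genes tied to Sertoli cell maturation, 1 was higher and 6 were lower, with a median of -0.08 (7 and 6 with the block, 4 and 6 without cattle 1, 1 and 4 without cattle 2 and 1 and 5 without cattle 3). The higher gene was CDKN1A, an inhibitor of cyclin-dependent kinases, at 105, 88.3 and 112 CPM against 11.7, 5.99 and 6.02 CPM (4.11 ± 0.35 (SE), edgeR adjusted p = 0.00016). CCND1, a cyclin of the G1 phase, fell, from 13.5, 14.2 and 15.8 CPM to 1.69, 1.22 and 0.719 CPM (-3.40 ± 0.41 (SE), edgeR adjusted p = 0.000575). ID3, an inhibitor of differentiation factors, fell from 68.7, 59.1 and 73.9 CPM to 8.43, 3.32 and 5.6 CPM (-3.35 ± 0.31 (SE), edgeR adjusted p = 0.000195), as did CCND2, ID2, KRT18 and ZBTB16. Tested against single cell types, 4 of the 15 maturation genes were higher and 2 lower than in Leydig cells. Against stromal cells the counts were 2 and 6, and against germ cells 5 and 2. Of the 6 that fell, CCND1, ID2, ID3 and KRT18 were not called against Leydig cells (edgeR adjusted p = 0.985, 0.325, 0.713 and 0.874). CCND2 was higher than in Leydig cells, and ZBTB16 was lower. The rule had removed cells with cell division genes, so a low level of division genes is no result.

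**Figure D3:**
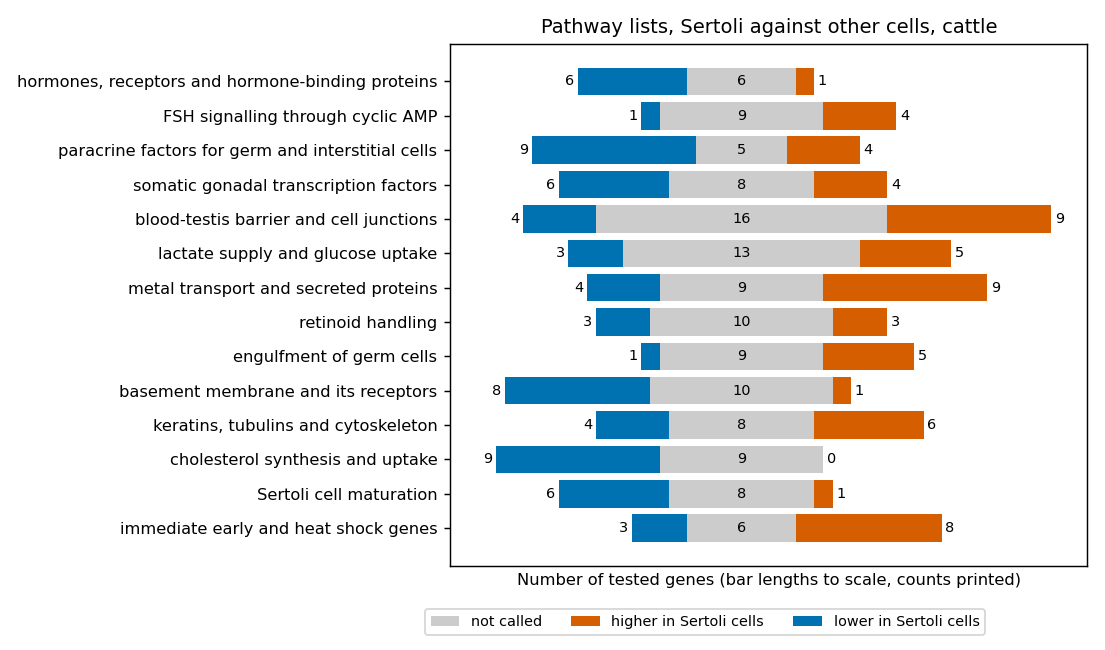
Number of tested genes of each pathway list that were higher (right, orange), lower (left, blue) or not called (grey, centred) in Sertoli cells against other cells, in edgeR's test at an adjusted p under 0.05. Junction genes had 9 higher and 4 lower of 29, and cholesterol genes had 0 higher and 9 lower of 18.

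Immediate early genes, which switch on within minutes of stress and also during tissue dispersal, were examined next. Of 17 immediate early and heat shock genes tested, 8 were higher and 3 were lower, with a median of 1.24. The counts were again 8 and 3 without cattle 1, and 7 and 1 without cattle 2 and without cattle 3. FOS stood at 1564, 733 and 714 CPM against 370.5, 229.6 and 392 CPM (1.86 ± 0.33 (SE), edgeR adjusted p = 0.0033), and EGR1 at 428, 241 and 234 CPM against 105, 81.1 and 109 CPM (1.90 ± 0.25 (SE), edgeR adjusted p = 0.000959). FOSB, JUN, JUNB, ATF3, IER2 and NR4A1 rose too, and each of these 8 genes was highest in cattle 1, as IER2 at 977, 247 and 263 CPM. JUNB overlapped between Sertoli cells and other cells, at 1429, 545 and 437 CPM against 384, 365 and 455 CPM. IER3, KLF6 and HSPH1 fell. The heat shock gene HSPA1A was at 346, 11.7 and 23.6 CPM in Sertoli cells and at 118, 16.5 and 22.9 CPM in the other cells, high in cattle 1 in both, and was not called (edgeR adjusted p = 0.417), except with the animal as a replicate block (log2 fold change 0.74, edgeR adjusted p = 8.49e-05). The part of the dispersal in these levels was not tested.

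**Figure D4:**
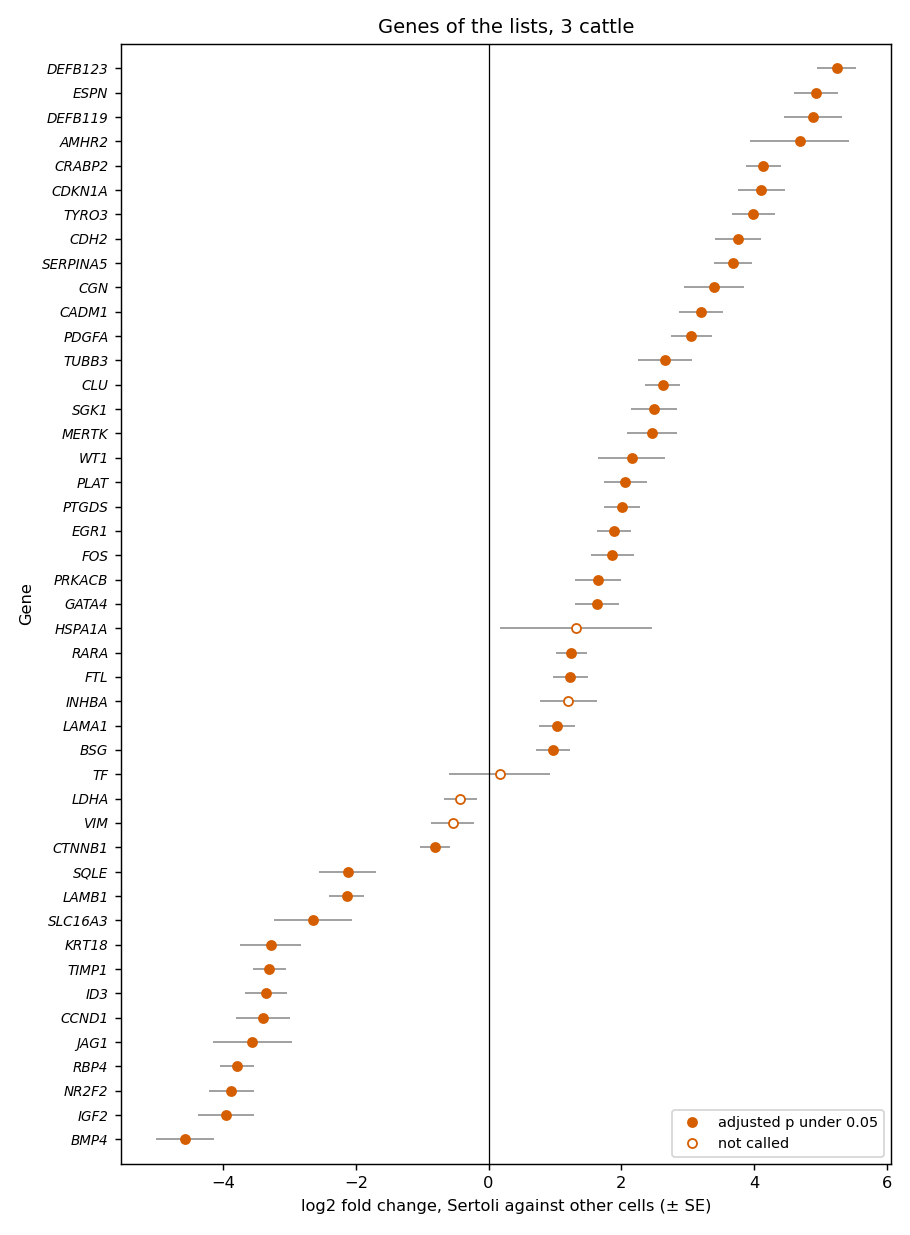
Log2 fold change of Sertoli cells against other cells (points, with the standard error) for genes named in the text from the marker, hormone, FSH signalling, transcription factor, lactate, cholesterol, basement membrane, paracrine, junction, secretion, retinoid, engulfment, cytoskeleton, maturation and immediate early lists. Filled points passed the threshold, and values run from -4.57 for BMP4 to 5.25 for DEFB123.

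Set against single cell types, which were chosen by the same kind of rule from the Leydig, stromal and germ cell sets (1132, 6233 and 159 cells, of which 12 germ cells in cattle 1), the Sertoli cells were tested against each type. Of 12895 genes tested in 1 fit over all 4 types, 1215 (9.42%) were higher and 1186 (9.2%) lower than in Leydig cells, 1749 (13.6%) and 2081 (16.1%) against stromal cells, and 2862 (22.2%) and 2304 (17.9%) against germ cells. Blocking on the animal (replicate block) gave 2064 and 1921 for Leydig cells, 2919 and 3291 for stromal cells and 3777 and 3009 for germ cells. Without cattle 2 the counts were 426 and 431, 611 and 776, and 1348 and 749; without cattle 3 they were 411 and 395, 638 and 667, and 1351 and 1151. With scaling by library size alone the genes' log2 fold changes shifted by a median of -1.21 against germ cells, where 1144 genes were then higher and 5058 lower, and by 0.12 and -0.10 against Leydig and stromal cells. In all 3 contrasts, 559 genes (4.34%) were higher and 164 (1.27%) were lower in the Sertoli cells. The 3 contrasts share the Sertoli sums, so this overlap is a count and not a test.

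The 10 named genes whose smallest of the 3 fold changes was largest were VSIG1, SLC52A3, PRND, SPOCK2, ACHE, HOGA1, DEFB123, PCSK1N, MAP7 and ARHGAP36. SLC52A3 was at 3.36, 6.05 and 5.97 CPM in Leydig, 5.61, 5.22 and 9.74 CPM in stromal and 0, 3.07 and 1.98 CPM in germ cells, with log2 fold changes of 5.22, 4.96 and 7.61. ARHGAP36, a protein known as an inhibitor of protein kinase A, was at 449, 493 and 625 CPM in Sertoli cells against 40.9, 46.1 and 47.6 CPM in germ cells (log2 fold change 4.70 ± 0.33 (SE), edgeR adjusted p = 2e-08). All 3 Sertoli values of this gene lay far above those of each other type. The type used as the reference mattered for several products that Sertoli cells are known for. GJA1, connexin 43, was at 64.1, 96.7 and 65 CPM in Sertoli, 217, 459.6 and 213 CPM in Leydig and 11.2, 13.9 and 10.4 CPM in stromal cells, so it was lower than in Leydig cells (-2.07 ± 0.33 (SE), edgeR adjusted p = 0.000154) and higher than in stromal cells (2.74 ± 0.36 (SE), edgeR adjusted p = 1.22e-05). LDHA was higher than in Leydig cells (2.22 ± 0.39 (SE), edgeR adjusted p = 0.00045) and stromal cells (1.31 ± 0.33 (SE), edgeR adjusted p = 0.00536) and lower than in germ cells, where it was at 633, 521 and 476 CPM (-2.24 ± 0.32 (SE), edgeR adjusted p = 2.65e-05). GATA4 was at 23.5, 49.9 and 47.8 CPM in Leydig and 56.1, 42.9 and 52.3 CPM in stromal cells, and neither contrast passed the test (edgeR adjusted p = 0.0817 and edgeR adjusted p = 0.0614). With the animal as a replicate block GATA4 was higher than in both (edgeR adjusted p = 0.000457 and 4.78e-06), as it was without cattle 1 (0.0137 and 0.000793). Scaled by library size alone, GATA4 was also higher than in Leydig cells (edgeR adjusted p = 0.0356). LDHA lost its call against stromal cells without cattle 2 (edgeR adjusted p = 0.0928) and without cattle 3 (0.0755). ALDH1A1, an enzyme that makes retinoic acid, was at 261, 297 and 316 CPM in Sertoli and 2212, 8755 and 8441 CPM in Leydig cells (-4.61 ± 0.52 (SE), edgeR adjusted p = 4.67e-06). ALDH1A1 was higher than in germ cells (edgeR adjusted p = 0.000145) and was not called against stromal cells (edgeR adjusted p = 0.539).

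The same rule applied to the pig libraries, where DAZL was not analysed here, chose 467, 2546 and 231 cells, 2993 of 3244 of them on 2 of the 6 genes, and the Sertoli effect (Sertoli against other cells) was compared between species over 12557 of 13961 shared gene symbols. Species, age, breed, gene annotation and the software version in the matrix headers cannot be told apart here. The effect was more positive in cattle for 572 genes (4.56%) and in pigs for 639 (5.09%), and, blocked on the animal, for 1438 and 1614. Without cattle 2 the counts were 164 and 229, without cattle 3 they were 156 and 216, without pig 2 they were 392 and 350, and without pig 3 they were 229 and 296. The difference takes in the levels of the other cells as well as those of the Sertoli cells. The named genes with the largest positive difference were at or near 0 in pig Sertoli cells. For F10, EFHD1, LTF and KLC3 the other pig cells were above the pig Sertoli cells of the same animal. F10, coagulation factor X, was at 202, 128 and 72.3 CPM in cattle Sertoli cells and at 0, 0.0866 and 0 CPM in pig Sertoli cells, against 8.41, 4.39 and 5.41 CPM in other cattle cells and 1.46, 0.27 and 2.06 CPM in other pig cells (difference 8.44 ± 1.0 (SE), edgeR adjusted p = 0.00017). EFHD1, a calcium-binding protein of mitochondria, was at 135, 147 and 156 CPM in cattle and 0, 0.26 and 0.77 CPM in pigs, against 8.41, 8.29 and 11.7 CPM and 1.46, 5.66 and 3.69 CPM in the other cells (7.44 ± 0.72 (SE), edgeR adjusted p = 0.000111). LTF, lactoferrin, was at 258, 80.6 and 100.3 CPM in cattle and 0, 0.346 and 0.77 CPM in pigs, against 14.9, 14.3 and 7.01 CPM and 4.03, 4.04 and 2.55 CPM in the other cells (6.59 ± 0.74 (SE), edgeR adjusted p = 0.000145). KLC3, a kinesin light chain, was at 86, 57.1 and 51.6 CPM in cattle and 0, 0.0866 and 0 CPM in pig Sertoli cells, against 6.54, 5.09 and 4.42 CPM and 0.732, 1.62 and 0.759 CPM in the other cells. SNCB, beta-synuclein, had no UMI in pig Sertoli cells, F10 and KLC3 had 1, EFHD1 4 and LTF 5, so the sizes of their fitted differences depend on the prior count. The call of SNCB was lost without pig 2 (edgeR adjusted p = 0.18). In the other direction, CCK, cholecystokinin, was at 161, 88.9 and 218 CPM in pig and 0, 0.175 and 0 CPM in cattle Sertoli cells, against 22.3, 7.82 and 6.88 CPM in other pig and 0.467, 1.9 and 1.41 CPM in other cattle cells (-7.64 ± 1.16 (SE), edgeR adjusted p = 0.00105). PVALB, the calcium-binding parvalbumin, was at 197, 309 and 161 CPM in pigs and 0, 0.175 and 0.431 CPM in cattle, against 30.0, 27.2 and 2.87 CPM and 2.8, 5.09 and 2.52 CPM in the other cells (-6.95 ± 1.17 (SE), edgeR adjusted p = 0.00222). PTGES, a prostaglandin E synthase, was at 95.6, 229 and 204 CPM in pigs and 0, 0 and 0.719 CPM in cattle, against 15.7, 25.1 and 5.91 CPM and 4.67, 0.599 and 10.0 CPM in the other cells (-7.29 ± 1.33 (SE), edgeR adjusted p = 0.00357). In all cattle Sertoli cells CCK had 1 UMI, PVALB 4 and PTGES 5, so these sizes depend on the prior count too. REM1, a small GTPase, was lower in Sertoli than in other cells in cattle (20.2, 8.38 and 6.9 CPM against 126, 135 and 179 CPM) and higher in pigs (51.8, 101 and 88.5 CPM against 8.78, 27.2 and 13 CPM).

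Some genes were called in both species. Of 10121 symbols tested in each, 1438 were higher in cattle and 845 in pig Sertoli cells, and the 309 higher in both were 21.5% of the first and 36.6% of the second. Of all these symbols 14.2% were higher in cattle and 8.35% in pigs. A further 78 were higher in pigs and lower in cattle, and 27 were higher in cattle and lower in pigs. ADORA1 was at 99.6, 92.4 and 136 CPM in pig Sertoli cells against 11.7, 8.36 and 2.49 CPM in other pig cells, SPOCK2 at 295, 374 and 420.4 against 32.6, 33.4 and 5.53 CPM, and SERPINA5 at 1343, 1408 and 1635 against 171, 109 and 21 CPM. No difference in their effects between species was called (edgeR adjusted p = 0.641, edgeR adjusted p = 0.524 and edgeR adjusted p = 0.748), which does not show that they are equal. ACHE and MAP7, which were among the 15 in cattle, were at 3.99, 2.68 and 0.77 and 17.9, 24.8 and 14.6 CPM in pig Sertoli cells, and their effects differed (5.48 and 4.70; edgeR adjusted p = 0.000183 and edgeR adjusted p = 0.000592). INHBB, without a UMI in cattle Sertoli cells, was at 33.9, 61.7 and 50.8 CPM in pig Sertoli cells. It had fewer than 10 counts over the Sertoli and other cells of cattle, too few to be tested there. No difference in its effect between species was called.

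**Figure D5:**
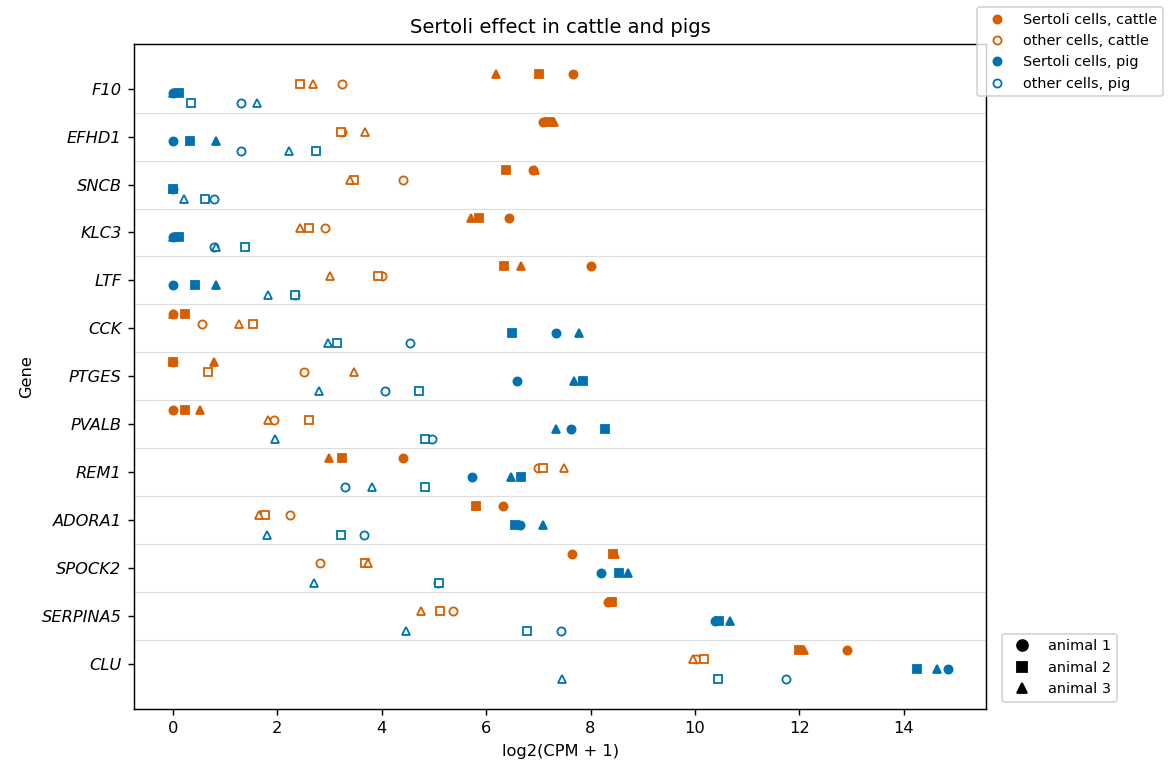
Levels (log2 of CPM plus 1) in Sertoli and other cells of cattle and pigs, 1 point per animal, for 9 named genes whose Sertoli effect differed between species and for 4 genes high in both. F10, EFHD1, SNCB, KLC3 and LTF lie near 0 in pig Sertoli cells, CCK, PTGES and PVALB lie near 0 in cattle Sertoli cells, and REM1 points in opposite directions in the species.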

How the data were processed

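Droplet single-cell RNA-sequencing libraries of 3 cattle and 3 pig testes were analysed from the counts deposited by the authors, which are raw UMI counts per gene and barcode with no cell filter. The submitters' processing notes name Cell Ranger 2.1.0 and the builds ARS-UCD1.2 (cattle) and Sscrofa11.1 (pig), while the headers of the pig matrices give software version 3.0.2 and those of the cattle matrices give none; the annotation release is not given in the sources used here.

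Barcodes were called as cells at the 99th percentile of the 3000 largest totals divided by 10, which gave the minimum UMI totals in the text. Members, reference cells (at most 1 UMI of the 6 genes) and the Leydig, stromal and germ cells were then chosen by the stated rules. The rule's exclusions are the main guard against doublets, with Scrublet as an alternative. UMIs were summed per animal, since cells are not replicates. The p-values measure the spread of the sums of 3 animals about the mean of their group, with the sums taken as unpaired. Sums were compared with edgeR 4.0.16 (quasi-likelihood test, TMM, at least 10 counts over all sums, Benjamini-Hochberg at 0.05). The SE is the log2 fold change divided by the square root of F. DESeq2 1.42.0, library size alone, no filter on low counts (at least 1 count), a replicate block, other rules for the cells and leaving out each animal were alternatives. Leaving out cells with immune or endothelial markers was chosen after seeing the data. Sums of the same animal come from 1 library, so the animal pairs them, and only the replicate block used this pairing. Their deviations from the group means correlated at 0.622, 0.549 and 0.597 in cattle and at 0.49, 0.517 and 0.412 in pigs, across genes. The fits were also run on simulated data, but the outcome is not reported here and nothing is drawn from it.

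The members and gene lists were chosen with earlier results of these data known. Named genes were those called, with a symbol, at least 50 CPM and the same direction in 3 animals: the 15 with the largest rise and 10 with the largest fall, the 10 highest against all 3 types, and 5 in each direction between species. Ribosomal and mitochondrial genes were left out, and some items are not reported here, so that 9 genes are named between species. Other genes are list members, and the 2 IDs were singled out after their values were seen. Symbols found in several rows were left out of the list counts. Thinned shares are the expected share of cells with a UMI at 460 UMIs per cell. C28H10ORF10 was matched to DEPP1 in RefSeq's gene table for ARS-UCD2.0, used for names only.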

Additional observations from a re-analysis of the deposited data

Results flagged for a closer look

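The Sertoli effect (log2 fold change of Sertoli against other cells) differed between cattle and pigs in edgeR's interaction test for 9 named genes. The cattle effect minus the pig effect was 8.44 for F10, 7.44 for EFHD1, 7.05 for SNCB, 6.97 for KLC3 and 6.59 for LTF, the 5 named genes with the larger effect in cattle. It was -7.64 for CCK, -7.29 for PTGES, -6.95 for PVALB and -6.23 for REM1, 4 with the larger effect in pigs. SNCB had 0, F10 and KLC3 1, EFHD1 4 and LTF 5 UMIs in all pig Sertoli cells, and CCK had 1, PVALB 4 and PTGES 5 in all cattle Sertoli cells, so the sizes of these differences depend on the prior count. SNCB lost its call without pig 2 (edgeR adjusted p = 0.18). Species, age, breed, annotation and software version cannot be told apart.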

How the results depend on the processing

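Blocked on the animal (replicate block), the fits called higher and lower 3475 and 3951 against other cells, 2064 and 1921 against Leydig cells, 2919 and 3291 against stromal cells, and 1438 and 1614 between species; against germ cells they called 3777 and 3009. Library size alone gave 1178 and 3339 against other cells and 1144 and 5058 against germ cells, so 26.1% and 18.4% of the calls were higher where TMM gave 44.6% and 55.4%. Without exclusions, 1122 were higher and 1113 lower than in other cells. Leaving out each animal in turn gave 518 to 2653 higher and 587 to 3023 lower against other cells, 411 to 1538 and 395 to 1315 against Leydig cells, 611 to 2346 and 667 to 2504 against stromal cells, 1348 to 3293 and 749 to 2651 against germ cells, and 156 to 704 and 216 to 645 between species. The mean share of Sertoli cells moved by less than its SD, between 13.8% and 23.9%, and without 1 animal between 14.8% and 20.9%. TF, not called (0.17), ran from -0.42 to 1.46 without 1 animal; it turned to -0.42 with all called barcodes outside the rule as reference and to -0.10 with library size alone. The species difference of SERPINA5, also not called, ran from -1.29 to 0.0123 without 1 animal, with the sign turned without pig 3. Of 1049 checks of 70 genes against other cells, 1046 kept their direction, 28 lost and 10 gained a call. With no cell dropped, the genes lower fell to 2 in the hormone, junction and secretion lists, 5 in the paracrine, 4 in the basement membrane and 0 in the engulfment and Leydig lists, the lactate list had 1 higher and 1 lower, and the basement membrane list had none higher. DESeq2 called 2 FSH signalling genes lower and 2 basement membrane genes higher, and library size alone 2 genes lower in the FSH signalling and engulfment lists. The causes were not tested. The replicate block changed the call of no gene whose fold change is given other than TF, INHBA, LDHA, VIM, HSPA1A and GATA4. Cattle 1 held the fewest UMIs, so 3 counts there are 5.06 CPM.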
